A study of Mus musculus with 10 samples.

Results

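The collagen chain genes are the mouse genes whose symbol is Col, a number, the letter a and a number, and each encodes an α chain of a collagen. The symbol rule, which uses no measured value, found 44 of them among the 25233 entries with a gene symbol. By the usual classes, 11 encode fibrillar chains, 9 basement membrane chains, 9 FACITs (fibril-associated collagens with interrupted triple helices), 9 network-forming chains, 4 transmembrane chains and 2 others. Their RNA levels were compared between 5 libraries of hypertrophied hepatic stellate cells (hypHSCs) and 5 of quiescent hepatic stellate cells (qHSCs). All mice were C57BL/6J. The hypHSC donors ate the CDAHFD, a high-fat diet low in choline that causes fatty liver and fibrosis, for 13 weeks (hypHSC 1 and 2, mice 19 weeks old) or 12 weeks (hypHSC 3, 4 and 5, mice 18 weeks old). The qHSC donors ate the standard diet and were 36 weeks old (qHSC 1, 2 and 5) or 34 weeks old (qHSC 3 and 4). The groups also differed in the amount of digestion enzyme, in antibiotics, added to buffers for CDAHFD livers, and in the fluorescence gate of the sort. Diet, age, digestion, antibiotics and gate cannot be told apart. Each library is 1 sorted preparation, the hypHSC preparations were picked by RNA quality, and the mouse behind each one is not given in the sources used here, so n counts preparations and the p-values measure the spread between them only.

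Collagens are secreted or membrane proteins in which α chains wind into a triple helix. Fibrillar chains build the cable-like fibrils of scar tissue, FACITs sit on the surface of these fibrils, network-forming chains build beaded filaments and lattices, and type IV chains build the sheet of the basement membrane. In the liver, hepatic stellate cells store retinoids in lipid droplets in the quiescent state and are a main source of fibrillar collagen in fibrosis.

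Each library had 30534719 to 47317028 reads on genes with a symbol. The deposited unit is the normalized count, a read count divided by the size factor of its library. A gene with 3 reads or fewer was taken to be at the floor of detection, which is 2.25 to 4.54 normalized counts and covers counting error only. Checked against cell type markers, all 12 quiescent stellate cell markers, *Lrat* and *Reln* among them, fell in hypHSCs, with a summed level of 32566 to 62481 normalized counts against 1365341 to 2257894 in qHSCs, and *Gfap* and *Ngfr* had no read in at least 1 hypHSC library. Of 10 macrophage markers 8 rose in hypHSCs, with a summed level of 977473 to 1380279 against 4233 to 117103 in qHSCs, where qHSC 1 (53763) and qHSC 4 (117103) stood above the others. Mitochondrial entries took 2.21% to 12.8% of all hypHSC reads and 1.25% to 1.61% of all qHSC reads. The part of these differences in the collagen values was not tested. In bulk libraries fewer cells of a type and less RNA per cell cannot be told apart.

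Collagen transcripts of hypHSC libraries were mainly those of type III and type I, whose chain genes did not pass the test, while *Col14a1*, *Col5a1*, *Col6a1* and *Col4a1* fell from high levels in qHSCs and *Col4a5*, *Col15a1* and *Col12a1* rose from low ones. Collagen chain genes took 0.153%, 0.0981%, 0.0897%, 0.0329% and 0.0340% of the reads on genes with a symbol in hypHSC 1 to 5, and 0.238%, 0.257%, 0.294%, 0.143% and 0.139% in qHSC 1 to 5. The highest hypHSC library lay above the lowest 2 qHSC libraries, so the ranges overlap. Of the 44 genes, 3 had no read in any library (*Col2a1*, *Col11a1* and *Col6a4*) and 16 had reads in all 10. The filter of at least 10 normalized counts in at least 5 libraries left 27 for the test, and 17 were not tested. Of the 27, 3 rose in hypHSCs, 11 fell and 13 did not pass, where passing took a log2 fold change of 1 or more in either direction and an adjusted p of 0.05 or less (limma, Benjamini-Hochberg over all 14630 genes tested). Over all genes tested, 39.5% passed, 17.8% as higher and 21.7% as lower. These shares also stand beside the counts by class, gene list and marker list below, none of which was tested against them. The median log2 fold change, hypHSCs over qHSCs, was -1.04 for the 27 collagen genes and -0.20 for all genes tested. For 11 of the 27 the 2 groups did not overlap, 2 higher and 9 lower in hypHSCs, beside 39.5% of all genes tested, 17.6% higher and 22.0% lower. *Col4a5*, 1 of the 2 higher, reached the filter only through the hypHSC libraries, so its groups could not overlap. Without qHSC 1 and 4, the 2 qHSC libraries with the highest macrophage marker levels, 4 rose and 8 fell, an alternative chosen after seeing the data. With scaling on *Hprt*, *Pgk1* and *Actb*, 3 rose and 16 fell.

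**Figure D1:**
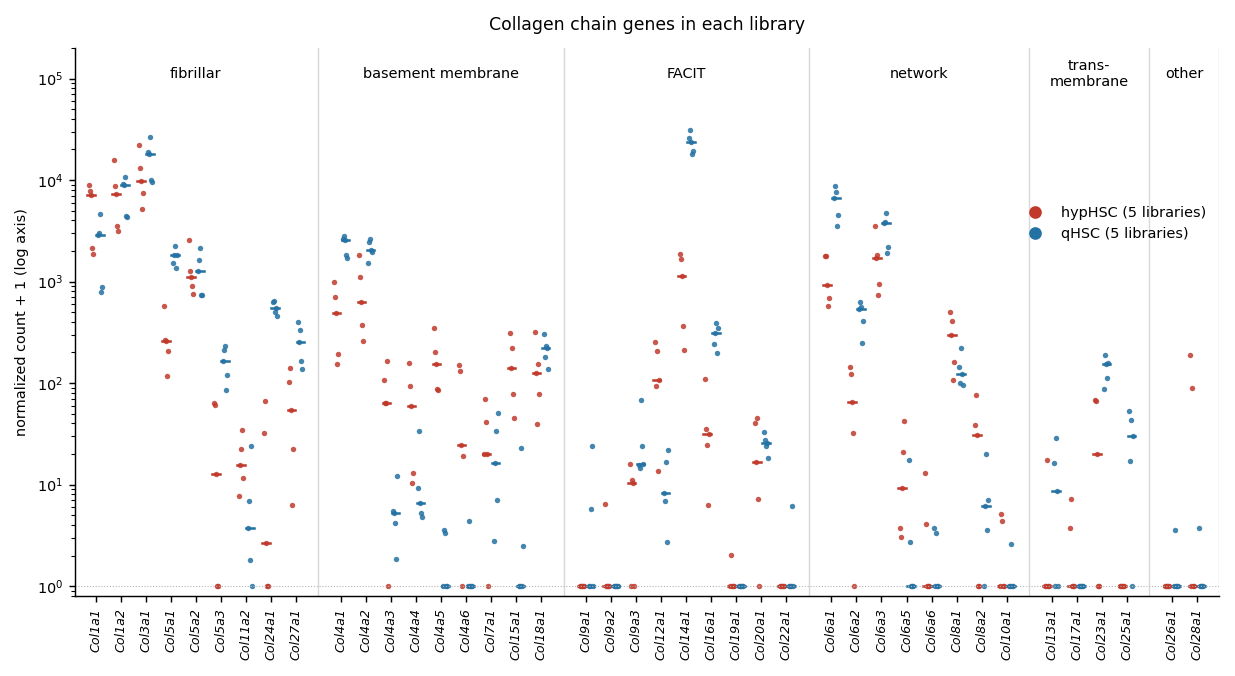
Level of each collagen chain gene with at least 1 read, as normalized count + 1 on a log axis, by class. Points are libraries (5 hypHSC in red, 5 qHSC in blue) and bars are medians. Col14a1 lies at 18184 to 31261 normalized counts in the qHSC libraries and at 212 to 1872 in the hypHSC libraries. It is the highest gene in qHSC 1, 2, 4 and 5, while Col3a1 is the highest in qHSC 3.

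Among the fibrillar chain genes 9 of 11 were tested, and none rose, 4 fell and 5 did not pass. The chains of the abundant fibrils, types I and III, did not pass. *Col1a1* (chromosome 11, 94827050 to 94843866, GRCm39), the α1 chain of type I collagen, had 8865, 7811, 7189.9, 2122 and 1860.3 normalized counts in hypHSC 1 to 5 and 2873, 2977, 4648, 781 and 877 in qHSC 1 to 5. The 3 libraries hypHSC 1 to 3 were above every qHSC library and the other 2 were within the qHSC range. The log2 fold change was 1.23 (SE 0.61, limma, adjusted p = 0.118), and *Col1a1* passed when hypHSC 5 was left out (1.56, adjusted p = 0.0471, limma). The value was 0.30 with scaling on *Hprt*, *Pgk1* and *Actb* and 0.66 with the 12-week hypHSCs only.

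*Col1a2* (chromosome 6, 4505618 to 4541543), the α2 chain that joins the α1 chain in type I collagen, had 15702, 8829.7, 7285, 3485 and 3116 normalized counts in hypHSCs and 9056, 8888, 10824, 4414 and 4341 in qHSCs. *Col3a1* (chromosome 1, 45350698 to 45389012), the chain of type III collagen, had 22117, 13061, 9828, 5157 and 7426 in hypHSCs and 19020.4, 17951, 26445, 9904 and 9599.9 in qHSCs. The groups overlapped for both genes, with hypHSC 1 the highest hypHSC library and qHSC 3 the highest qHSC library. The log2 fold changes were -0.12 (SE 0.45) for *Col1a2* and -0.60 (SE 0.40) for *Col3a1* (limma, adjusted p = 0.841 and 0.245), and the sign for *Col1a2* changed under DESeq2 (0.03) and edgeR (0.06). Both passed as lower when the libraries were scaled on *Hprt*, *Pgk1* and *Actb* (*Col1a2* -1.06 and *Col3a1* -1.54, limma, adjusted p = 0.0279 and 0.00356), and *Col3a1* also with the 12-week hypHSCs only (-1.09, limma, adjusted p = 0.0401). Over all transcripts of *Col1a2* 10.3% of the exon bases are also covered by another gene, and 1.21% of the 59-base stretches of its canonical transcript occur in another gene.

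Type V collagen sets the width of type I fibrils, and its chain genes parted from each other. *Col5a1* (chromosome 2, 27776437 to 27929521) had 567, 267, 259, 116 and 204 normalized counts in hypHSCs and 1509, 1819, 2254, 1358 and 1819 in qHSCs. Every hypHSC library was below every qHSC library, and the log2 fold change was -2.79 (SE 0.36, limma, adjusted p = 8.14e-05). *Col5a2* (chromosome 1, 45413491 to 45542443) had 2575, 1279, 1099, 900.1 and 753 in hypHSCs and 1283, 1643, 2144, 729 and 729 in qHSCs. Here the ranges overlapped over most of their length, with a log2 fold change of 0.01 (SE 0.39, limma, adjusted p = 0.990) that turned to -0.35 with the same total of reads in each library and to -0.93 with scaling on *Hprt*, *Pgk1* and *Actb*. *Col5a3*, the third chain of this type, had 62.0, 60.0, 11.6, 0 and 0 in hypHSCs and 165, 213, 229.9, 83.9 and 119.9 in qHSCs. It fell by 4.14 on the log2 scale (SE 1.20, limma, adjusted p = 0.0146) with no overlap, but did not pass in edgeR (adjusted p = 0.0641).

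*Col24a1* and *Col27a1* encode the 2 fibrillar chains whose triple helix is shorter and interrupted. *Col24a1* (chromosome 3, 144998233 to 145257766) had 31.0, 66.3, 1.66, 0 and 0 normalized counts in hypHSCs and 622, 648, 498, 550.2 and 458 in qHSCs. The last 3 hypHSC libraries were at the floor, while the lowest qHSC library had 611 reads. It fell by 6.61 on the log2 scale (SE 1.12, limma, adjusted p = 0.000599). With hypHSC libraries at the floor the size depends on the added count and the model, and was -5.38 with a pseudocount of 5, -4.81 in DESeq2 and -4.79 in edgeR. *Col27a1* had 102, 139.8, 53.2, 5.25 and 21.2 in hypHSCs and 395, 255, 333, 163 and 137 in qHSCs. It fell by 2.55 (SE 0.78, limma, adjusted p = 0.0181), with hypHSC 2 just above the lowest qHSC library, and did not pass without qHSC 1 and 4 (limma, adjusted p = 0.0737). *Col11a2*, a cartilage fibril chain, stayed at 6.74 to 33.6 in hypHSCs and 0 to 23.1 in qHSCs (log2 fold change 1.99, SE 0.88, limma, adjusted p = 0.0847).

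**Figure D2:**
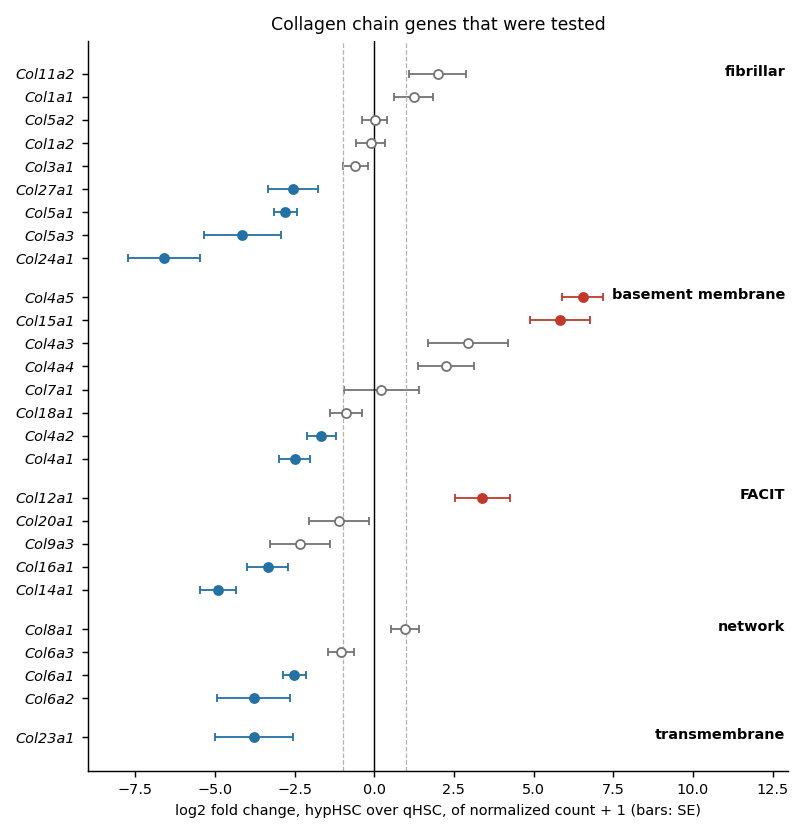
Log2 fold change (hypHSC over qHSC, of normalized count + 1) of the 27 collagen chain genes tested, by class, with the limma SE as bars. Filled red points rose, filled blue points fell and open points did not pass. The dashed lines mark a log2 fold change of 1 in either direction. The fibrillar, network and transmembrane classes hold no red point, and the values run from -6.61 (Col24a1) to 6.54 (Col4a5), 2 genes with libraries at the floor, so that these 2 values depend on the added count.

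Of the 9 FACIT genes 5 were tested, and 1 rose, 2 fell and 2 did not pass. *Col14a1* (chromosome 15, 55171142 to 55384199), whose product, once named undulin, coats the surface of fibrils, had 1872, 1667, 1129, 365 and 212 normalized counts in hypHSCs. The qHSC libraries had 25841, 31261, 23622, 18184 and 19424. The lowest qHSC library was thus far above the highest hypHSC library, and the log2 fold change was -4.91 (SE 0.55, limma, adjusted p = 3.27e-05). Per length, as reads per 1000 bases of the canonical transcript and per 1000000 reads on genes with a symbol (RPKM), *Col14a1* was the first of the family in qHSCs (112 ± 26.3, SD, n = 5) and the seventh in hypHSCs (4.04 ± 2.91). *Col3a1* was the first in hypHSCs with 50.4 ± 29.9, and the second in qHSCs with 92.4 ± 43.1.

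*Col16a1*, another FACIT, had 109, 34.2, 23.3, 5.25 and 30.2 normalized counts in hypHSCs and 239.8, 312, 391, 196 and 345 in qHSCs. It fell by 3.35 on the log2 scale (SE 0.64, limma, adjusted p = 0.00126), and the groups did not overlap. *Col12a1* (chromosome 9, 79506269 to 79626005), whose product binds fibrils as that of *Col14a1* does, went the other way, with 255, 92.1, 205, 12.6 and 107 in hypHSCs and 7.24, 5.96, 15.8, 1.71 and 20.98 in qHSCs. It rose by 3.39 (SE 0.86, limma, adjusted p = 0.00697), and only hypHSC 4 lay within the qHSC range. *Col20a1* (-1.11, SE 0.95) and *Col9a3* (-2.34, SE 0.95) did not pass (limma, adjusted p = 0.361 and 0.0616). *Col9a3* passed as lower without hypHSC 1 (-2.79) and with the same total of reads (-2.58), and 14.2% of the 59-base stretches of the *Col9a3* transcript also occur in *Tcfl5*, so reads of the 2 genes cannot be fully told apart in libraries made without strand.

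The remaining 4 FACIT genes were at or near the floor. *Col9a1* reads came from qHSC 3 (6) and qHSC 4 (27), *Col9a2* had 4 reads in hypHSC 1, *Col19a1* 1 read in hypHSC 2 and *Col22a1* 6 reads in qHSC 4, and all other libraries had none.

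Put on the per-length scale and summed, the fibrillar class made up 79.9% to 83.7% of the collagen transcripts of hypHSC libraries and 37.6% to 53.6% of those of qHSC libraries. FACITs made up 1.67% to 3.96% and 24.4% to 37.4%, and network chains 8.86% to 10.9% and 14.5% to 18.5%. None of these 3 classes overlapped between the groups, while basement membrane chains, at 3.75% to 6.04% and 5.18% to 8.06%, did. A share depends on all the other chains, and *Col14a1* alone took 23.7% to 36.6% in qHSCs and 1.16% to 3.72% in hypHSCs. The summed level itself was 56.7 to 263 RPKM in hypHSCs and 232 to 502 in qHSCs.

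**Figure D3:**
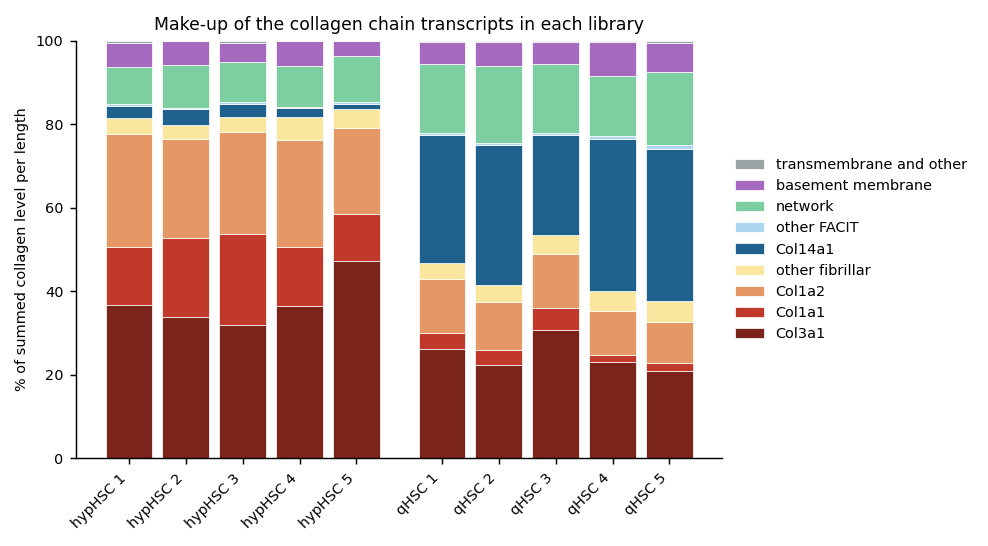
Make-up of the summed per-length level of all collagen chain genes in each library, in percent. Each bar is 1 library. Col3a1, Col1a1 and Col1a2 fill most of every hypHSC bar, and Col14a1 takes 23.7% to 36.6% of the qHSC bars and 1.16% to 3.72% of the hypHSC bars.

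Of the network-forming chains 4 of 9 were tested, and 2 fell. Type VI collagen, a trimer of the α1, α2 and α3 chains that builds beaded filaments around cells, showed unequal changes of its chains. *Col6a1* (chromosome 10, 76544626 to 76561878) had 1798, 1792, 916, 569.7 and 691 normalized counts in hypHSCs and 6671, 8661, 7617, 3489 and 4553 in qHSCs, and fell by 2.51 on the log2 scale (SE 0.37, limma, adjusted p = 0.000236). Its neighbour *Col6a2* (chromosome 10, 76431590 to 76459464) had 144, 122, 64.0, 31.5 and 0 in hypHSCs and 533, 624, 564, 246 and 408 in qHSCs, and fell by 3.79 (SE 1.15, limma, adjusted p = 0.0185). The groups did not overlap for either gene, and *Col6a2* did not pass without qHSC 1 and 4 (limma, adjusted p = 0.0573).

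*Col6a3* (chromosome 1, 90694582 to 90771693) had 3549, 1691, 1844, 743 and 945 normalized counts in hypHSCs and 3755, 3895, 4726, 1919 and 2178 in qHSCs. Only hypHSC 1 lay within the qHSC range. Its log2 fold change of -1.04 (SE 0.41) missed the threshold (limma, adjusted p = 0.0570), and it passed with the same total of reads (-1.40, limma, adjusted p = 0.0243), with the 12-week hypHSCs only (-1.51), and without hypHSC 1 (-1.35) or qHSC 4 (-1.22). *Col8a1*, a chain of the type VIII lattice of vessel walls, had 106 to 497 in hypHSCs and 95.2 to 219.7 in qHSCs (log2 fold change 0.96, SE 0.45, limma, adjusted p = 0.1001), and passed as higher in DESeq2 (1.11) and without hypHSC 4 (1.27).

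*Col8a2*, its partner chain, was not tested and had 28, 72 and 36 reads in hypHSC 1 to 3, none in hypHSC 4 and 5, and 0 to 24 in qHSCs. *Col6a5* had 2 to 27 reads in hypHSCs and 18 and 2 reads in qHSC 1 and 2 only, while *Col6a6* had at most 9 reads and *Col10a1* at most 4 in any library.

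Of the 9 basement membrane chain genes 8 were tested, and 2 rose, 2 fell and 4 did not pass. Type IV collagen is made in the liver mostly as a trimer of α1 and α2 chains, while the α3, α4, α5 and α6 chains build the basement membranes of kidney, lung and some epithelia. The 6 genes lie as head-to-head pairs. In the deposited table *Col4a1* and *Col4a2* (chromosome 8) start 11362826 and 11362805 and overlap by 22 bases, *Col4a4* and *Col4a3* (chromosome 1) start 71 bases apart, and *Col4a6* and *Col4a5* (chromosome X) start 1341 bases apart.

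*Col4a1* had 984, 697, 492, 152 and 192 normalized counts in hypHSCs and 2624, 2793, 2572, 1836 and 1711 in qHSCs. It fell by 2.51 on the log2 scale (SE 0.48, limma, adjusted p = 0.00124), and the groups did not overlap. *Col4a2* had 1829.9, 1102, 632, 368 and 260.1 in hypHSCs and 1511, 2474, 2607, 2066 and 1950.4 in qHSCs, and fell by 1.66 (SE 0.46, limma, adjusted p = 0.0119). Here hypHSC 1 was above the lowest qHSC library, and 3.87% of the 59-base stretches of the *Col4a1* transcript also occur in *Col4a2*.

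*Col4a5* had 348, 203, 154, 86.0 and 84.7 normalized counts in hypHSCs, from 258, 196, 185, 82 and 56 reads. In qHSCs it had 0, 3, 3, 0 and 0 reads, all at the floor. The hypHSC mean was at least 70.3-fold higher than the floor of 3 reads per library averaged over the qHSCs, and the gene passed as higher (limma, adjusted p = 1.3e-05). It reached the filter only through the 5 hypHSC libraries, which already kept the groups apart, so this p-value is not separate support. *Col4a6* was not tested, since only 4 hypHSC libraries had reads (110, 126, 28, 0 and 12 in hypHSC 1 to 5), and qHSC 2 had the only 4 reads of the qHSCs. Both genes of this pair were thus seen in hypHSC 1, 2, 3 and 5, and *Col4a5* alone in hypHSC 4.

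The sequences before the starts of these neighbours are shown because this pair had 0 to 4 reads in every qHSC library. They are the 250 bases before each start in the RefSeq promoter table (GRCm38.p6), chrX:141474077-141474326 on the minus strand for *Col4a6* and chrX:141475169-141475418 on the plus strand for *Col4a5*, with start sites 1343 bases apart. Capitals mark GGGCGG or its reverse complement CCGCCC, the core of the GC box.
Col4a6: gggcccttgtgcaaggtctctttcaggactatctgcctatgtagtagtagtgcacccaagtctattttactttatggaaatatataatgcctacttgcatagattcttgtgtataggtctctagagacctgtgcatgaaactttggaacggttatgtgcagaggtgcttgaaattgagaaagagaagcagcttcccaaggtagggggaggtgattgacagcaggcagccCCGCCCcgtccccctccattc
Col4a5: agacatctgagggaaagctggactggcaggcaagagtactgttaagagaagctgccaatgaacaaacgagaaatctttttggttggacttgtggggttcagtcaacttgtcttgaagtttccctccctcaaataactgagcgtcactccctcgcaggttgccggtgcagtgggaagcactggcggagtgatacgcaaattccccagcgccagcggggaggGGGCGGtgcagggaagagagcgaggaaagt
Each window holds 1 such match, and 32.7% of the 32851 promoter windows in the table hold at least 1. The *Col4a5* window has 10 CpG sites against 3 before *Col4a6*. The table had an entry for 35 of the 44 genes, and for 21 of them a window held the motif.

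The third pair had few reads in qHSCs as well. *Col4a3* had 105, 63.1, 63.2, 163 and 0 normalized counts in hypHSCs and 4.53, 4.26, 3.15, 0.86 and 11.2 in qHSCs. *Col4a4* had 156, 93.2, 58.2, 9.44 and 12.1 in hypHSCs and 8.15, 32.4, 5.51, 4.28 and 3.75 in qHSCs. For each gene hypHSC 1 to 3 were above all qHSC libraries, and hypHSC 5 was not. The log2 fold changes of 2.93 (SE 1.26) and 2.25 (SE 0.88) missed the threshold in limma (adjusted p = 0.0748 and 0.0546), while both passed in DESeq2 (4.03 and 2.61, adjusted p = 0.00022 and 0.00885) and in edgeR (4.06 and 2.63, adjusted p = 0.0105 and 0.0360). Of the *Col4a3* transcript, 9.12% of the 59-base stretches are shared with *C430014B12Rik* or *Col4a4*.

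**Figure D4:**
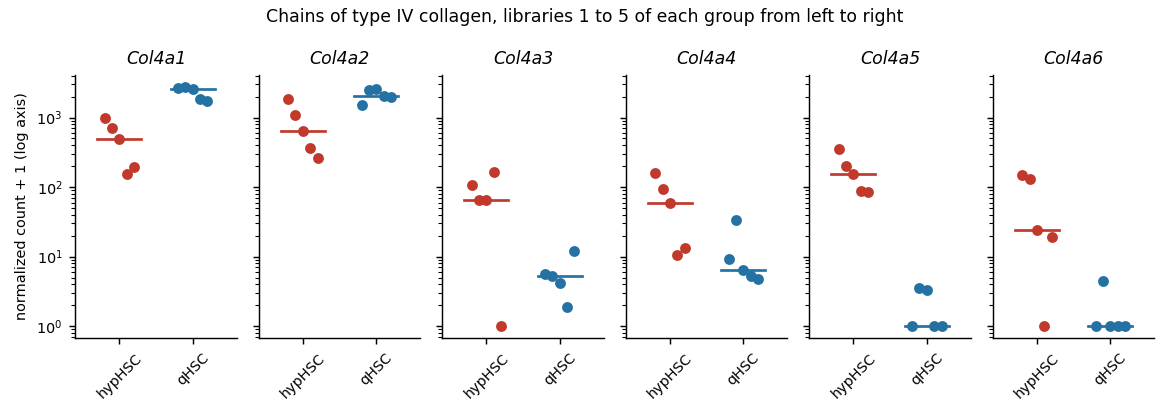
Normalized count + 1 of the 6 type IV collagen chain genes on a log axis, libraries 1 to 5 of each group from left to right, with the median as a bar. Col4a1 is higher in every qHSC library (lowest 1711) than in any hypHSC library (highest 984), and Col4a5 is above 80 in every hypHSC library, with 84.7 the lowest, and at 0 to 2.56 in the qHSC libraries.

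Types XV and XVIII, related collagens of vessel and epithelial basement membranes whose ends release restin and endostatin, differed from each other. *Col15a1* (chromosome 4, 47208012 to 47313165) had 313, 139, 220.4, 77.6 and 43.9 normalized counts in hypHSCs and 0, 0, 22.0, 0 and 1.5 in qHSCs. It rose by 5.83 on the log2 scale (SE 0.95, limma, adjusted p = 0.000434), and the lowest hypHSC library was above qHSC 3, the highest of the qHSCs. *Col18a1* had 314, 125, 38.2, 152 and 77.1 in hypHSCs and 302, 179, 233, 222 and 138 in qHSCs (log2 fold change -0.88, SE 0.51, limma, adjusted p = 0.172). Over all its transcripts 12.7% of the exon bases are also covered by another gene, while 0% of the 59-base stretches of its canonical transcript occur in another gene. *Col18a1* passed as lower with scaling on *Hprt*, *Pgk1* and *Actb* (-1.81, limma, adjusted p = 0.00559), with the 12-week hypHSCs only (-1.43, limma, adjusted p = 0.0372) and without hypHSC 1 (-1.25, limma, adjusted p = 0.041). *Col7a1*, the anchoring fibril chain, had 0 to 68.3 and 1.81 to 49.5, with a log2 fold change of 0.21 (SE 1.18, limma, adjusted p = 0.896) whose sign turned with the same total of reads (-0.04) and with scaling on *Hprt*, *Pgk1* and *Actb* (-0.69).

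Among other cell types whose markers were listed, sinusoidal endothelial markers summed to 3162 to 6372 normalized counts in hypHSCs and 1156 to 2883 in qHSCs (3 of 8 tested rose and 2 fell). *Stab1* held most of the sum in hypHSCs, at 2467 to 5259. Mesothelial markers summed to 335 to 796 and 127 to 232, with 2 of 3 tested higher and *Msln*, *Upk3b* and *Gpm6a* at the floor in every qHSC library. Portal fibroblast markers summed to 8352 to 19368 and 1480.3 to 7860.4, with 3 of 6 tested higher and 1 lower. *Dpt* held most of the sum in hypHSCs, at 7503 to 17125. Cholangiocyte markers summed to 161343 to 336685 and 30.8 to 387, with 4 of 4 tested higher. *Spp1* held nearly all of the sum in hypHSCs, at 160907 to 335921, while *Krt19* had 33.3 to 710. *Krt19* and the mesothelial marker *Gpm6a* reached the filter only through the hypHSC libraries, so their groups could not overlap. Of 6 hepatocyte markers none passed (11294 to 83279 and 19814 to 72955). Of 8 genes of activated stellate cells and myofibroblasts, collagens left out, 3 rose and 3 fell (3816 to 12617 and 15920 to 23937). Whether these cells carried the reads of *Col4a5*, *Col15a1* or *Col12a1* was not tested.

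Of the 4 transmembrane collagens 1 was tested. *Col23a1* had 67.4, 66.3, 19.1, 0 and 0 normalized counts in hypHSCs and 86.9, 189, 154, 112 and 155 in qHSCs. The groups did not overlap, and it fell by 3.78 on the log2 scale (SE 1.23, limma, adjusted p = 0.0249), but it did not pass in DESeq2 (adjusted p = 0.0691) or edgeR (adjusted p = 0.108), nor without hypHSC 4 or without qHSC 2, 3 or 5 in limma (adjusted p = 0.0503 to 0.0541). *Col25a1*, known from amyloid plaques of the brain, had no read in any hypHSC library and 57, 19, 54, 0 and 39 reads in qHSC 1 to 5, a qHSC mean at least 8.05-fold higher than the floor of 3 reads per library averaged over the hypHSCs. *Col13a1* had 20 reads in hypHSC 3 and 17, 35 and 9 in qHSC 1, 3 and 4, and *Col17a1*, the hemidesmosome collagen, had 2 and 6 reads in hypHSC 1 and 2. Of the 2 unclassed genes, *Col26a1* had 3 reads in qHSC 2, and *Col28a1* had 141 and 106 reads in hypHSC 1 and 3, none in the other hypHSC libraries and 3 in qHSC 1.

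Ratios of 2 chains within a library do not depend on how libraries are scaled, and were compared for pairs that meet in 1 trimer or fibril. Of 7 pairs, 6 were used, and *Col6a1*/*Col6a2* was not, because hypHSC 5 had no *Col6a2* read. Per length, *Col1a1*/*Col1a2* was 0.510, 0.799, 0.892, 0.550 and 0.540 in hypHSCs and 0.287, 0.303, 0.388, 0.160 and 0.183 in qHSCs, a difference in mean log2 ratio of 1.36. *Col5a1*/*Col5a2* was 0.197, 0.187, 0.210, 0.116 and 0.242 in hypHSCs and 1.05, 0.990, 0.940, 1.67 and 2.23 in qHSCs, a difference of -2.81. In qHSC 1 to 3 the 2 type V chains were at similar levels, in qHSC 4 and 5 *Col5a1* was the higher one, and in hypHSCs it was the lower one in every library.

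*Col5a1*/*Col1a1* ran from 0.0240 to 0.0771 in hypHSCs and from 0.340 to 1.46 in qHSCs (-4.04). *Col3a1*/*Col1a1* ran from 1.46 to 4.25 and from 6.06 to 13.5 (-1.83). *Col4a1*/*Col4a2* ran from 0.421 to 0.794 and from 0.895 to 1.77 (-0.84). *Col6a3*/*Col6a1* ran from 0.425 to 0.906 and from 0.202 to 0.279 (1.47). The groups did not overlap for any of the 6 ratios, each with p = 0.00794 in an exact two-sided permutation test, the smallest that 252 arrangements can give, and 0.00794 after Benjamini-Hochberg adjustment over the 6. The pairs share genes and are not independent of each other.

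**Figure D5:**
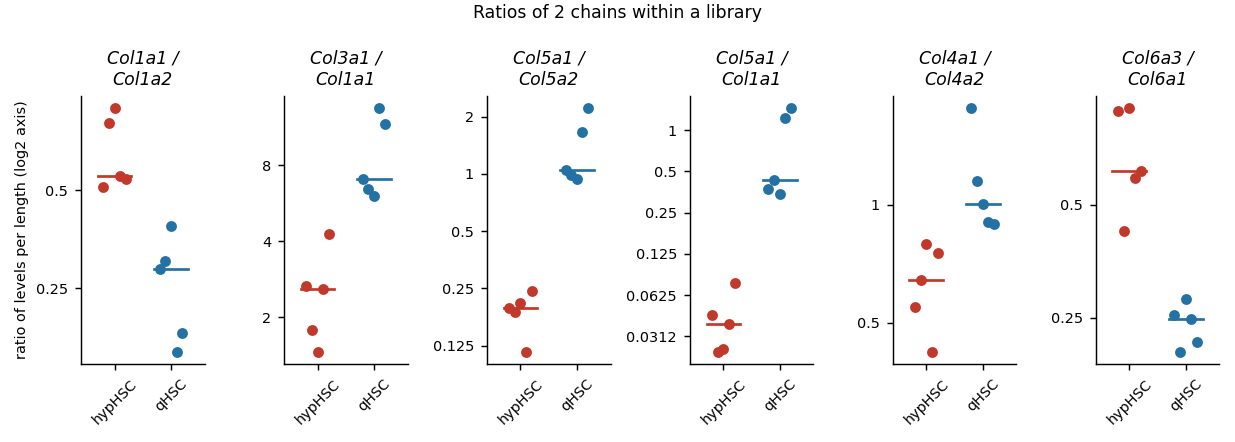
Ratio of the per-length levels of 2 collagen chains within each library, on a log2 axis, for 5 hypHSC (red) and 5 qHSC (blue) libraries, with the median as a bar. The groups do not overlap in any panel, and Col5a1/Col5a2 runs from 0.116 to 0.242 in red and from 0.940 to 2.23 in blue.

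Of 17 tested genes for the enzymes and chaperones that modify and fold collagen chains in the endoplasmic reticulum, 1 rose and 10 fell in hypHSCs, beside 17.8% and 21.7% of all genes tested. With scaling on *Hprt*, *Pgk1* and *Actb* 0 rose and 15 fell, while 8 fell in DESeq2 and 7 without qHSC 1 and 4. *Serpinh1*, the collagen chaperone HSP47, had 451 to 10857 normalized counts in hypHSCs and 45338 to 63522 in qHSCs and fell by 3.80 on the log2 scale (SE 0.71, limma, adjusted p = 0.00113). *Colgalt2*, 1 of the galactosyltransferases of hydroxylysine, fell by 5.60 (SE 0.75, limma, adjusted p = 0.000116), and *P4ha2*, a catalytic chain of prolyl 4-hydroxylase, fell by 3.21 (SE 0.53, limma, adjusted p = 0.000473). *Colgalt2* had 0 to 6.29 normalized counts in hypHSCs and 28.3 to 123 in qHSCs, so the size of its fall depends on the added count. It reached the filter only through the qHSC libraries. *Colgalt1*, the other galactosyltransferase, rose by 1.51 (SE 0.17, limma, adjusted p = 2.73e-05), a call lost with scaling on *Hprt*, *Pgk1* and *Actb*.

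For procollagen export and propeptide removal, 13 genes were tested, none rose and 7 fell, beside 17.8% and 21.7% of all genes tested. With scaling on *Hprt*, *Pgk1* and *Actb* 11 fell. *Adamts14* and *Adamts3*, procollagen N-proteinases, had log2 fold changes of -5.76 (SE 0.91) and -5.14 (SE 0.68), and *Pcolce*, which enhances removal of the C-propeptide, one of -4.27 (SE 0.61), and all 3 passed as lower (limma, adjusted p = 0.000351, 0.000101 and 0.000178). *Adamts14* had 0 to 39 reads and *Adamts3* 0 to 8 in hypHSC libraries, so the sizes of their falls depend on the added count. *Pcolce* had 145 to 2152 normalized counts in hypHSCs and 10456 to 21641 in qHSCs. Of the 5 lysyl oxidases, which crosslink collagen, *Lox* rose by 2.03 (SE 0.48, limma, adjusted p = 0.00502), a call lost with scaling on *Hprt*, *Pgk1* and *Actb*, and *Loxl4*, *Loxl3* and *Loxl2* fell, with log2 fold changes of -5.87, -2.58 and -2.45 (SE 0.95, 0.48 and 0.47). *Loxl4* had 0 to 36 reads in hypHSC libraries, so the size of its fall depends on the added count.

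Among collagen receptors 8 were tested, and 1 rose and 2 fell, beside 17.8% and 21.7% of all genes tested. With scaling on *Hprt*, *Pgk1* and *Actb* 1 rose and 4 fell. The integrin chain *Itga1* fell by 4.63 (SE 0.26, limma, adjusted p = 2.4e-07) and the collagen-sensing kinase *Ddr2* fell by 4.57 (SE 0.40, limma, adjusted p = 5.19e-06). *Lair1*, an inhibitory collagen receptor of leukocytes, rose by 5.54 (SE 0.78, limma, adjusted p = 0.000156), with 4282 to 8291 normalized counts in hypHSCs and 30.7 to 739 in qHSCs. Of the 8 tested genes for breakdown and uptake, 4 rose and none fell, beside the same 17.8% and 21.7%. With scaling on *Hprt*, *Pgk1* and *Actb* 4 rose and 3 fell. *Mmp13* and *Mmp8*, collagenases, rose by 7.43 (SE 0.91) and 6.89 (SE 0.73), and *Mrc1*, the mannose receptor of macrophages and endothelial cells, by 3.30 (SE 0.69; limma, adjusted p = 6.06e-05, 2.12e-05 and 0.00228). In qHSC libraries *Mmp13* had 0 to 49 reads and *Mmp8* 0 to 12, so the sizes of their rises depend on the added count. The macrophage marker sum was higher in hypHSCs, as were *Lair1*, *Mmp13*, *Mmp8* and *Mrc1*, and its part in them was not tested. *Mrc1* had 1164 and 2667 normalized counts in qHSC 1 and 4 and 172 to 228 in the other qHSCs. *Lair1* had 482 and 739 in qHSC 1 and 4 and 30.7 to 83.45 in the others. *Mmp13* had 44.35, 17.04, 2.36, 0 and 2.25 in qHSC 1 to 5, and *Mmp8* had 0.91, 0, 0, 10.27 and 0. The marker sum was the lowest of the hypHSCs in hypHSC 5. There *Mrc1* was at its highest of the hypHSCs (5655 normalized counts), and *Lair1* (4282), *Mmp13* (676) and *Mmp8* (123) were at their lowest.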

How the data were processed

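RNA was reverse transcribed from the poly(A) tail and amplified, and 59-base paired reads were sequenced without strand. The deposited signal of a gene is its normalized count: the authors mapped reads to mm39 with STAR, counted them with featureCounts (Subread 1.5.0) and divided each library by its DESeq2 size factor. Multiplying by the size factor gave whole reads (within 0.1) for 100% of the values. The symbol rule uses no measured value, but it, the classes and the gene lists were set with earlier results of these data known. Entries without a symbol were left out. Genes that reached 10 normalized counts in 5 or more of the 10 libraries were compared as log2(normalized count + 1), a scale on which the fold change of a low gene depends on the added count, with limma 3.58.1 (lmFit, eBayes with trend; R 4.3.3) and Benjamini-Hochberg adjustment. DESeq2 1.42.0 and edgeR 4.0.16 on the recovered reads were alternatives, beside other pseudocounts, filters and scalings, a replicate block, 12-week hypHSCs only and each library left out. Lengths are those of GENCODE canonical transcripts. Every member is named, and up to 3 of the largest rises and falls of each list. Single ratios were tested by exact permutation.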

Additional observations from a re-analysis of the deposited data

Results flagged for a closer look

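In 66 groups of 5 libraries (27 tested genes and 6 ratios in each of 2 groups), 6 had a highest library that stood far from the other 4 for its group's range. How many would be flagged by chance among such skewed counts was not computed. The libraries were qHSC 4 for *Col11a2* (23.1 normalized counts), hypHSC 1 for *Col5a2* (2575), qHSC 3 for *Col15a1* (22.0), qHSC 2 for *Col4a4* (32.4), hypHSC 1 for *Col16a1* (109) and qHSC 3 for *Col9a3* (67.7). Without qHSC 4 *Col11a2* passed as higher in hypHSCs (log2 fold change 2.63, limma, adjusted p = 0.0214), and without qHSC 2 *Col4a4* did (2.73, limma, adjusted p = 0.0293).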

How the results depend on the processing

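Of 284 alternative values of the counts and ratios, 270 kept their direction and side of the threshold or stayed within 1.5 times the count. The ratios were varied only by leaving out libraries. Since their groups did not overlap, they could change neither direction nor side, so their part of the 270 is no separate support. Of 637 for single genes, 572 did, 34 passed anew, 10 no longer passed and 21 changed sign. The median log2 fold change of all genes moved by -0.35 with the same total, 0.11 with the upper quartile and -0.94 with *Hprt*, *Pgk1* and *Actb*. Collagen genes higher in hypHSCs numbered 0 when a mean level of 100 normalized counts was required, which removed all 3, 6 in DESeq2, 5 in edgeR, and 3 to 6 with 1 library left out (5 without hypHSC 4, 6 without hypHSC 5). Those lower numbered 16 with scaling on *Hprt*, *Pgk1* and *Actb*, 14 with 12-week hypHSCs only and 13 with the same total. They numbered 10 in DESeq2, 9 in edgeR and 10 to 14 with 1 library left out. Over all genes tested, same-numbered libraries of the 2 groups deviated together little (r = 0.01 to 0.13). The collagen share of reads was higher in libraries 1 to 3 than in libraries 4 and 5 of both groups. The sources used here do not say whether the numbers mark pairs. With the replicate number as a block 5 rose and 13 fell, *Col1a1* among those that rose (1.23, limma, adjusted p = 0.00171). Scaling on *Hprt*, *Pgk1* and *Actb* gave 0 higher in the folding list, 11 lower in the export list, 0 higher in the crosslinking list, 4 lower among receptors and 3 lower in the breakdown list. Chosen after seeing the data, the same total gave 1 lower in the breakdown list, and leaving out qHSC 1 and 4 gave 1 higher in the export list. With 1 library left out, lower genes of the breakdown list numbered 0 to 1 (1 without hypHSC 1). *Col1a2* changed sign in DESeq2 (0.034) and edgeR (0.0609) and ran from -0.44 to 0.14 with 1 library left out (above 0 without hypHSC 4, hypHSC 5 or qHSC 3). *Col5a2* gave -0.35 with the same total, -0.93 on *Hprt*, *Pgk1* and *Actb*, -0.39 with 12-week hypHSCs only, -0.19 without qHSC 1 and 4, and -0.27 to 0.22 with 1 library left out (below 0 without hypHSC 1 or 2 or qHSC 4 or 5). *Col7a1* gave -0.0445, -0.69, -0.58 and -0.90 under these settings, and -0.37 to 1.22 with 1 library left out (below 0 without hypHSC 2 or 3 or qHSC 1 or 4). The cause of these changes was not tested. Depth limits the genes under about 10 reads in a library, where amplified reads are not independent molecules.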
